A study of Homo sapiens with 2 samples.

Results

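The BCL2 family decides at the outer mitochondrial membrane whether a cell under stress survives. Its transcripts were followed here in human embryonic kidney cells of the HEK-293 line after transfection of a miR-204 mimic. The 10 members were chosen by gene name: BCL2, BCL2L1, BCL2L2 and MCL1, which hold back death; BAX and BAK1, which carry it out; and BAD, BID, BCL2L11 and BBC3, which set it off. The array carried 23 probes for these 10 genes among 41000 probes in all, and 20 of the 23 were counted, against 25270 in all. A probe was counted if its signal was well above background on both arrays in at least 1 of the 2 RNAs and none of its spots carried an outlier flag. RefSeq's gene list for GRCh38.p14 holds all 10 names as current symbols.

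Cells received 75 nM of scrambled oligonucleotide (HEK-293 control) or of the miR-204 mimic (HEK-293 miR-204) and were harvested at 48 h according to the sample labels. Both groups were grown in medium with serum, and both were transfected. The RNAs were hybridized together on 2 Agilent whole genome arrays, with miR-204 RNA in Cy5 on the first array and in Cy3 on the second, which is called the swapped array below. No second transfection is named, so these 2 arrays were counted as 1 replicate, which leaves the spread between cultures unmeasured. The cells are a single established line and the mimic acted for a short time. RNA is read here, not protein, cleavage or localization.

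Anti-apoptotic members of the family bind and restrain BAX and BAK1, the effectors that form pores in the outer mitochondrial membrane. BH3-only members relay damage, growth factor loss or other stress, either by occupying the anti-apoptotic proteins or by activating the effectors directly. Once pores form, cytochrome c leaves the mitochondrion and caspases are activated. A miRNA usually lowers the transcripts that pair with its seed, and BCL2 has been studied as a possible target of miR-204 in other systems.

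The mature sequence of miR-204 and that of its closest relative are shown because the seed, in capitals at positions 2 to 8, sets which transcripts the mimic could pair with. Both come from RefSeq (GRCh38.p14), where hsa-miR-204-5p lies at chr9:70810031-70810052 and hsa-miR-211-5p at chr15:31065095-31065116, both on the minus strand.
hsa-miR-204-5p: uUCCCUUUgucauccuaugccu
hsa-miR-211-5p: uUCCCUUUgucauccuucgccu
These were the 2 of 2370 mature names in the table with this seed, and 20 of their 22 positions were shared. A site of 7 bases that pairs fully with the seed reads AAAGGGA. The labels do not give the arm of the mimic, and 3′ UTR sequences were not used here, so which members hold such a site was not analysed.

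Each array read 43376 spots other than controls. Between 25284 and 29024 of them were well above background per channel. The processed signals were quantile normalized over the 4 channels, and every ratio below is the log2 of miR-204 over control, turned so that a negative value means lower in miR-204 overexpressing cells on either array. The ratios of the 2 arrays showed almost no correlation over the 23159 probes that passed this limit in every channel (Pearson r of -0.08, Spearman rho of -0.07), though probes are not independent replicates. Of 18585 gene names, 52.5% had ratios of opposite sign on the 2 arrays. KRT8, KRT18, VIM, NEFM and NEFL, 5 of 6 genes known in HEK-293 cells, had a counted probe, and PAX2 did not. Of the genes of blood, liver and endothelium reported here, PTPRC, CD3E, ALB, PECAM1 and CDH5, 0 had a counted probe.

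No member reached 2-fold in either direction. Over all gene names, 0.452% were lower and 0.151% higher by at least 2-fold in the mean of the arrays with the same sign on both, and of the 10 members 0 were called in either direction. At 1.5-fold these shares were 2.06% lower and 1.44% higher over all gene names, and again 0 members were called. BCL2, BCL2L2, BAD and BID, 4 of the 10, were below control on both arrays (22.8% of all gene names were), and 0 were above control on both (24.5% of all gene names were). The median log2 ratio of the 10 members was -0.18, against 0.002 over all gene names. The first array alone gave a median of -0.32 and the swapped array alone -0.02. A lower signal in the culture as a whole cannot tell fewer cells with the transcript from less transcript per cell.

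**Figure D1:**
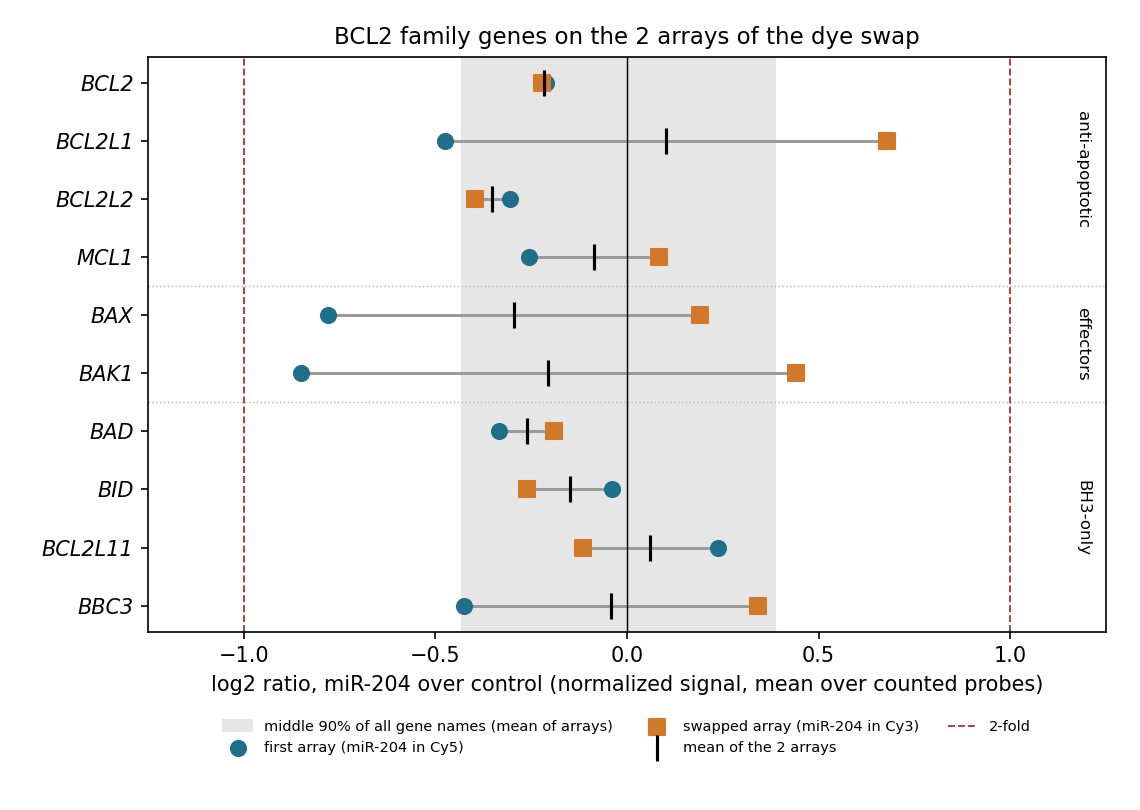
Log2 ratio of miR-204 over control for each of the 10 genes (horizontal axis), on the first array (circles), on the swapped array (squares) and as their mean (vertical ticks), by role in the family. The grey band holds the middle 90% of all gene names, from -0.43 to 0.39 for the mean of the arrays, and all 10 means lie inside it, while no gene reaches the dashed 2-fold lines on either array.

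Of the 4 anti-apoptotic genes, BCL2 and BCL2L2 lay below control on both arrays and BCL2L1 and MCL1 had opposite signs. BCL2L2 encodes BCL-W, known for its need in spermatogenesis, and had the lowest mean of the 10 members. Its 1 probe (chromosome 14, 22850500 to 22850559; positions here and below are on hg18) had a normalized signal of 1511 in control and 1222 in miR-204 RNA on the first array, and of 1468 and 1115 on the swapped array. Both miR-204 signals lay below both control signals. Such a separation, of 2 signals from 2 in 1 replicate, holds no spread between cultures. Its share over all probes is not given, here and for the genes below, so no change is read from it. The log2 ratios were -0.31 and -0.40, with a mean of -0.35 ± 0.064 (SD over the 2 arrays of 1 replicate), or 0.784 of control. Of all gene names, 7.77% had a mean as low.

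BCL2, the founding member, first found at a translocation in follicular lymphoma, was read by 2 probes. The probe from 59136115 to 59136150 on chromosome 18 had normalized signals of 209 in control and 181 in miR-204 RNA on the first array, and of 342 and 293 on the swapped array. The signal was lower in miR-204 RNA on each array, but both channels of the swapped array stood above both of the first, so the groups overlapped. Its ratios of -0.21 and -0.22 gave a mean of -0.22 ± 0.0081 (SD over the 2 arrays), and 17.1% of gene names had a mean as low. The other probe, from 58941703 to 58941762, was spotted 10 times and was left out because 1 of its spots on each array carried an outlier flag. With the remaining 8 spots kept as an alternative, its normalized signals were 270 in control and 258 in miR-204 RNA on the first array, and 309 and 191 on the swapped array. This probe too was lower on both arrays, by very unequal amounts: the first array gave a log2 ratio of -0.06 and the swapped array one of -0.70. With both probes averaged the BCL2 ratios became -0.14 and -0.46, with a mean of -0.30.

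BCL2L1, which encodes BCL-XL and its shorter pro-apoptotic splice form BCL-XS, had opposite signs on the 2 arrays. The probe from 29716985 to 29717044 on chromosome 20 had normalized signals of 36.4 in control and 26.2 in miR-204 RNA on the first array, and of 24.1 and 38.6 on the swapped array. The log2 ratio of -0.48 on the first array was followed by 0.68 on the swapped array. The mean of 0.10 ± 0.82 (SD over the 2 arrays) has no direction at this spread. A second probe, from 29773576 to 29773635, had no channel well above background and has no ratio here, and which splice form each probe reads was not analysed.

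MCL1, whose short-lived protein is needed for survival of many cell types, was read by 3 probes on chromosome 1. The probe from 148813852 to 148813911 gave 6429 in control and 6039 in miR-204 RNA on the first array, and 5714 and 5644 on the swapped array, with log2 ratios of -0.09 and -0.02. The probe from 148814246 to 148814305 gave 237 and 154, then 152 and 164, with ratios of -0.62 and 0.11. The probe from 148817362 to 148817421 gave 83.4 and 80.2, then 78.9 and 88.5, with ratios of -0.06 and 0.17. Only the first of these 3 probes had the same sign on both arrays, at a size near 0. The MCL1 mean was -0.09 ± 0.24 (SD over the 2 arrays).

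The effectors BAX and BAK1 showed a wide gap between the arrays. BAX, which moves from the cytosol to mitochondria when activated, was read by 3 probes on chromosome 19. The probe from 54156716 to 54156775, spotted 10 times, had normalized signals of 2252 in control and 1168 in miR-204 RNA on the first array, and of 1282 and 1618 on the swapped array. The probe from 54150770 to 54150829 gave 373 and 201, then 227 and 280. The probe from 54150541 to 54150600 gave 6548 and 4608, then 6768 and 6477. In all 3 the first array read lower in miR-204 RNA, at log2 ratios of -0.95, -0.89 and -0.51. On the swapped array, where the RNAs had exchanged dyes, the ratios were 0.34, 0.30 and -0.06. The means of the 3 probes nearly coincided, at -0.31, -0.29 and -0.29, although each was made of values that lay far apart. The BAX gene mean was -0.30 ± 0.69 (SD over the 2 arrays).

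BAK1, which sits in the mitochondrial membrane before activation, had 1 probe, on chromosome 6 from 33648563 to 33648622. Its normalized signal was 801 in control and 444 in miR-204 RNA on the first array, and 690 and 938 on the swapped array. The log2 ratios were -0.85 and 0.44, with a mean of -0.21 ± 0.91 (SD over the 2 arrays). Such a gap was uncommon, since 2.98% of all gene names had arrays as far apart as BAK1 and 7.35% as far apart as BAX. It was not confined to the effectors, as 4.34% of all gene names had arrays as far apart as BCL2L1. In the mean over the probes of each gene, the Cy5 signal was below the Cy3 signal on each array, whichever RNA carried Cy5. The same held for BCL2L1, MCL1 and BBC3, so for 5 of the 10 members, against 24.7% of all gene names, and for 8 of the 20 counted member probes, against 24.5% of all counted probes. The part of the dye in these ratios was not tested.

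**Figure D2:**
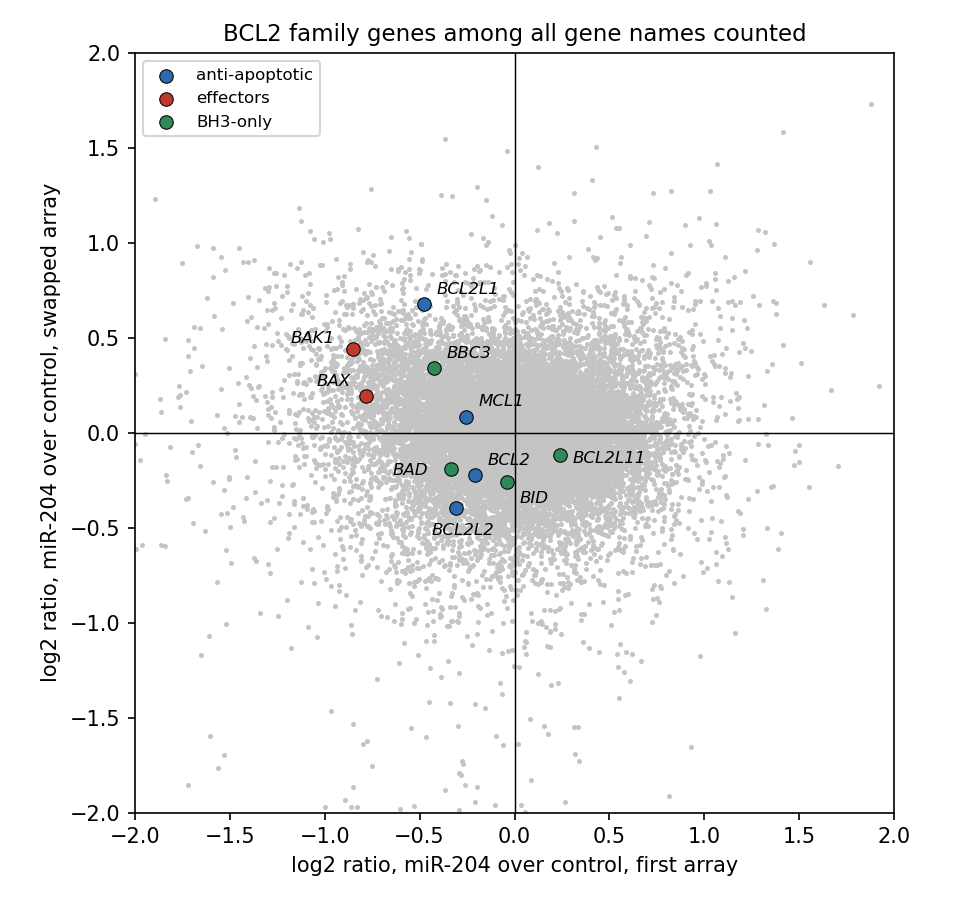
Log2 ratio of miR-204 over control on the first array (horizontal axis) against the swapped array (vertical axis) for all gene names counted (grey, 18536 of them within the axes and 49 beyond) and the 10 members (coloured by role). Members in the lower left quadrant (BCL2, BCL2L2, BAD and BID) were below control on both arrays, and BAX, BAK1, BCL2L1, MCL1 and BBC3 in the upper left one changed sign.

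Probes spotted 10 times show how much of this lay between arrays and how much between spots. The deposited processed signals of the 10 BAX spots gave log2 ratios from -0.99 to -0.88 on the first array, a mean of -0.95 ± 0.037 (SD over 10 spots). The same 10 positions gave ratios from 0.29 to 0.39 on the swapped array, a mean of 0.34 ± 0.025. The spots of an array nearly coincided, and the 2 arrays did not overlap. The distance between the array means was 1.29 on the log2 scale, and of 143 counted probes spotted 10 times, 3 had one as large, BAX included. For the BCL2L1 probe the first array minus the swapped array was -1.08, and 9 of the 143 had a distance as large. For the BCL2 probe with all 10 spots it was 0.61, and 23 of the 143 had one as large. The median distance over these 143 probes was 0.31. The SD over spots had a median of 0.0456 (first array) and 0.0475 (swapped array) among them.

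For BCL2 the 8 spots without a flag had a mean of -0.06 ± 0.035 (SD over spots) on the first array and -0.69 ± 0.076 on the swapped array. With all 10 spots these means were -0.07 ± 0.043 and -0.68 ± 0.097. Every BCL2 spot lay below 0 on both arrays, and again the spots of the 2 arrays did not overlap. The BCL2L1 spots were scattered, from -1.0 to 0.05 on the first array (SD 0.33) and from -0.52 to 1.01 on the swapped array (SD 0.45). The deposited signals of this probe were low, at 42.6 in control and 30.8 in miR-204 RNA on the first array, and 21.4 and 32.7 on the swapped array. The part of signal level in this scatter was not tested. Spots of 1 array share 1 hybridization and are not replicates of the transfection, so these SDs give no error for miR-204 against control.

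**Figure D3:**
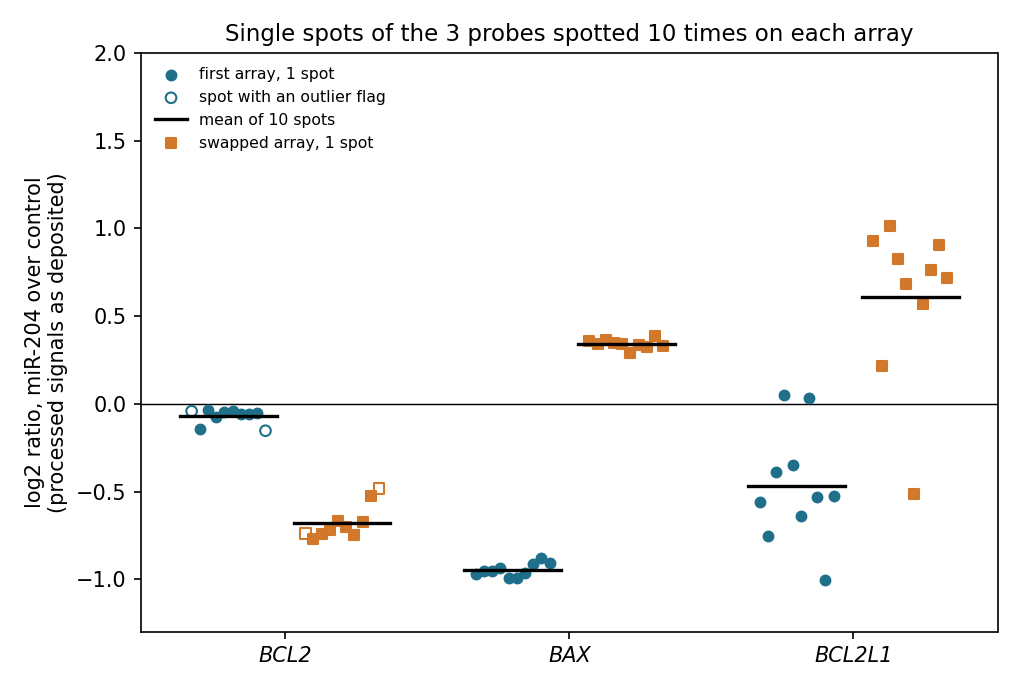
Log2 ratio of miR-204 over control (vertical axis, deposited processed signals) for each of the 10 spots of the BCL2, BAX and BCL2L1 probes that were spotted 10 times, on the first array (circles) and the swapped array (squares). Bars are means of 10 spots, and open symbols are spots with an outlier flag on either array; the BAX spots sit near -0.95 on one array and 0.34 on the other, while all BCL2 spots sit below 0.

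Among the BH3-only genes, BAD was lower on both arrays. Its protein neutralizes BCL2 and BCL-XL unless survival kinases phosphorylate it and 14-3-3 proteins hold it in the cytosol. The 1 probe, on chromosome 11 from 63794098 to 63794157, had normalized signals of 7739 in control and 6135 in miR-204 RNA on the first array, and of 7363 and 6457 on the swapped array. Both miR-204 signals were below both control signals. The ratios of -0.34 and -0.19 gave a mean of -0.26 ± 0.10 (SD over the 2 arrays), and 13.1% of gene names had a mean as low.

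BID, which links death receptors to mitochondria once caspase-8 has cut it, had 2 probes close together on chromosome 22 that differed. The probe from 16598182 to 16598241 gave 6014 in control and 4813 in miR-204 RNA on the first array, and 5802 and 4861 on the swapped array, with ratios of -0.32 and -0.26. The probe from 16598038 to 16598097 gave 627 and 743, then 681 and 567, with ratios of 0.24 and -0.27. The first of these was lower on both arrays, with no overlap of control and miR-204 signals, and the other changed sign. Their average, -0.04 on the first array and -0.26 on the swapped array, had a mean of -0.15 ± 0.16 (SD over the 2 arrays).

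BCL2L11 encodes BIM, which binds all the anti-apoptotic members and is raised by loss of growth factors. It had 5 probes on chromosome 2, of which 4 were counted. The probe from 111642363 to 111642422 gave 1492 in control and 1853 in miR-204 RNA on the first array, and 1557 and 1702 on the swapped array, with ratios of 0.31 and 0.13. Both miR-204 signals of this probe lay above both control signals. The probe from 111638189 to 111638248 gave 62.1 and 65.5, then 73.7 and 65.6, and the one that overlaps it, from 111638203 to 111638262, gave 77.0 and 96.6, then 82.0 and 68.1. The probe from 111627828 to 111627887 gave 68.1 and 80.0, then 74.0 and 66.6. These 3 were higher in miR-204 RNA on the first array, with ratios of 0.08, 0.33 and 0.23, and lower on the swapped array, with -0.17, -0.27 and -0.15. The fifth, from 111640036 to 111640095, was well above background in 1 channel alone and was not counted. The mean over the counted probes was 0.06 ± 0.25 (SD over the 2 arrays).

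BBC3 encodes PUMA, a BH3-only protein induced by DNA damage, and was read by 3 probes on chromosome 19. The probe from 52416014 to 52416073 gave 2470 in control and 2616 in miR-204 RNA on the first array, and 2270 and 2273 on the swapped array, with ratios of 0.08 and 0.002. The probe from 52423274 to 52423333 gave ratios of -0.62 and 0.03, from normalized signals of 122331 and 79330, then 114862 and 117254, none of them marked as saturated. The probe from 52416927 to 52416986 gave 60.7 and 36.5, then 30.2 and 60.0, with ratios of -0.73 and 0.99. The last of these had one of the widest gaps on the array, as 1.12% of counted probes were as far apart. The BBC3 mean was -0.04 ± 0.54 (SD over the 2 arrays).

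By role, the median log2 ratio was -0.15 over the 4 anti-apoptotic genes, -0.25 over the 2 effectors and -0.10 over the 4 BH3-only genes. Opposite signs on the 2 arrays were seen for 2 of the 4 anti-apoptotic genes, 2 of the 2 effectors and 2 of the 4 BH3-only genes. Together these were 60% of the members, against 52.5% of all gene names. The 3 medians were not tested against each other, since with 1 replicate a difference between groups of genes has no error over cultures. The members below control on both arrays came from opposite sides of the family, with BCL2 and BCL2L2 against death and BAD and BID for it. The methods' t-test over the 4 channels, which treats the 2 arrays as if they were separate samples, gave 3 of the 20 member probes an unadjusted p below its threshold, where 6.36% of all counted probes had one, and after Benjamini-Hochberg adjustment over all 25270 probes 0 of them passed. These 3 were the probes of BCL2L2 and BAD and 1 of BID, with adjusted p-values of 0.764, 0.764 and 0.747 by that test. With limma over the 2 ratios 0 member probes passed, with or without adjustment, against 4.66% of all counted probes before it and 0 after it. Neither test holds any spread between cultures.

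Further proteins of the family were read through a list of 12, of which 10 had a counted probe. BCL2L10 and BCL2L14 were not well above background in any channel. At 2-fold 0 of the 10 were called in either direction, where 0.452% of all gene names were lower and 0.151% higher. On both arrays 4 were below control and 4 above it (22.8% and 24.5% of all gene names), and their median was -0.07. BMF, a BH3-only protein tied to the cytoskeleton and released on loss of attachment, was lowest, with normalized signals of 523 in control and 320 in miR-204 RNA on the first array and of 449 and 415 on the swapped array. Both miR-204 signals were below both control signals, and the ratios were -0.71 and -0.11. BNIP3, a mitochondrial protein induced by hypoxia that takes part in mitophagy, was highest, with 11523 and 20670, then 12491 and 14954. Its miR-204 signals lay above both control signals, the ratios were 0.84 and 0.26, and their mean was 0.55.

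Genes that act after permeabilization (cytochrome c, other released proteins, VDAC channels and the apoptosome) had means between -0.14 and 0.11. All 10 listed genes were counted, and 0 were called at 2-fold (0.452% of all gene names were lower and 0.151% higher). Opposite signs on the 2 arrays were seen for 9 of the 10, against 52.5% of all gene names. The median was 0.04. HTRA2, a protease that relieves caspase inhibition, was lowest, with ratios of -0.54 and 0.25. CYCS, cytochrome c itself, was highest, with 0.32 and -0.11.

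Of 14 listed partners of the family and regulators of its turnover, all were counted. At 2-fold 0 were called, where 0.452% of all gene names were lower and 0.151% higher. On both arrays 4 were below control and 3 above (22.8% and 24.5% of all gene names), and the median was 0.01. HUWE1, the ubiquitin ligase that marks MCL1 for degradation, was lowest, at -0.64 and -0.22 over 3 probes. The 3 probes differed. One had normalized signals of 341 in control and 178 in miR-204 RNA on the first array and of 406 and 257 on the swapped array, at ratios of -0.94 and -0.66, whereas the other two had ratios of 0.006 and -0.004 on the swapped array. BAG1, a co-chaperone that binds BCL2, was highest, with 6792 and 8817, then 5924 and 8684, at ratios of 0.38 and 0.55. Both BAG1 signals in miR-204 RNA were above both in control.

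Transcription factors known to act on genes of the family, 11 in the list, had 9 with a counted probe. The probe of RELA, for example, carried an outlier flag and was left out. At 2-fold 0 were called, where 0.452% of all gene names were lower and 0.151% higher. On both arrays 6 of the 9 were above control (24.5% of all gene names were) and 0 below (22.8% of all gene names were). The median was 0.14, against 0.002 over all gene names. MYC was highest, with normalized signals of 5279 in control and 7358 in miR-204 RNA on the first array and of 5124 and 5249 on the swapped array, at ratios of 0.48 and 0.03. CREB1, an activator of BCL2 transcription, was lowest, at 0.18 and -0.46 over 2 probes that differed. One had ratios of 0.56 and -0.48, from normalized signals of 170 in control and 251 in miR-204 RNA, then 214 and 153. The other had ratios of -0.21 and -0.44, from lower signals of 84.6 and 73.3, then 77.0 and 56.7.

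**Figure D4:**
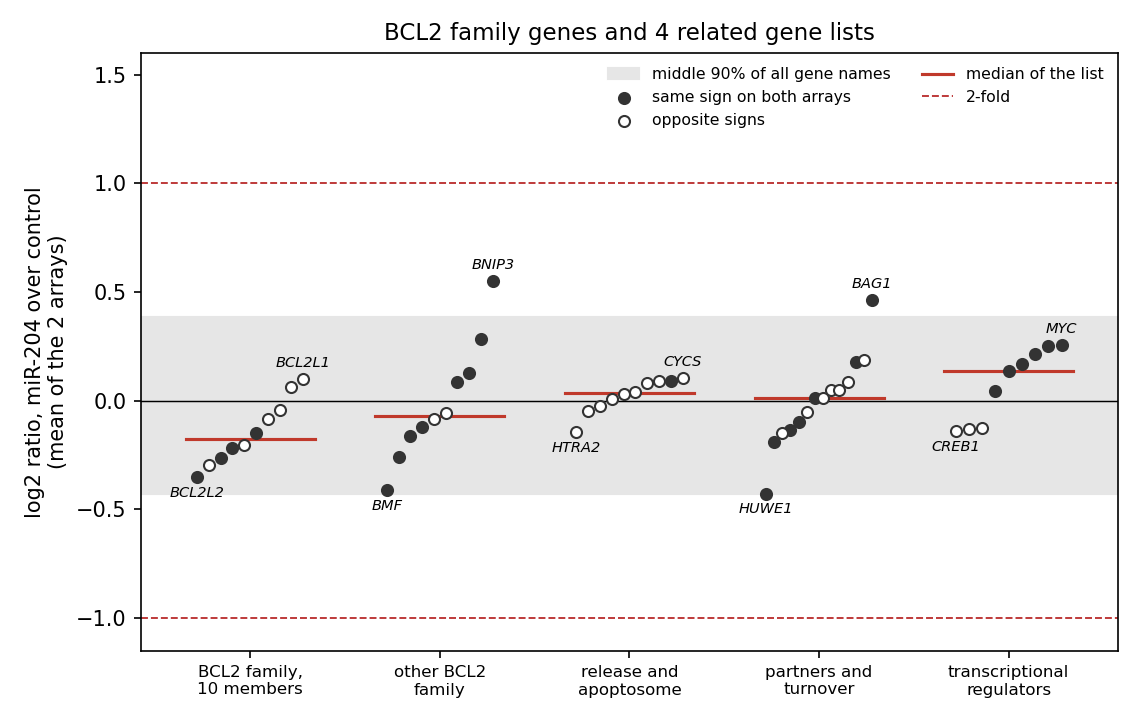
Mean log2 ratio of miR-204 over control of the 2 arrays (vertical axis) for each counted gene of the 10 members and of 4 related lists, with filled symbols for the same sign on both arrays, open symbols for opposite signs and red bars for medians. All genes lie between the 2-fold lines, with BNIP3 at 0.55 the highest and HUWE1 at -0.43 the lowest of the genes drawn.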

How the data were processed

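Signals of 2 arrays, each with control and miR-204 RNA in opposite dyes, were analysed. The authors extracted them with Feature Extraction 9.5.3.1. The deposited processed signals are intensity values that the software had corrected for background and dye, and the deposited mean and background signals are uncorrected intensity values. The software also wrote a log10 ratio (Cy5 to Cy3), deposited beside them. In the whole-series table that the authors deposited, values are log2 ratios of miR-204 over control after their quantile normalization. The p-value deposited by the authors' software for each spot was not used.

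Here, the log2 processed signals of a probe's spots were averaged and quantile normalized over the 4 channels (limma 3.58.1, R 4.3.3). Control spots and 128 probes with an outlier-flagged spot were left out. A probe was counted if over 50% of its spots passed the software's well-above-background flag on both arrays, in control or in miR-204 RNA, and a gene is the mean of its counted probes. A call needed a mean of 2-fold and the same sign on both arrays. Levels of different probes were not compared. Steps were tested on simulated data, with changes planted in random noise drawn separately for each array. The simulated data held no dye effect, so that test does not cover one. With 1 replicate, calls rest on fold and sign alone. The methods' t-test over the channels and limma over the 2 ratios were run as alternatives, and their p-values hold no spread between cultures. The number of arrays limits the precision.

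Genes named are all members and, of each other list, the lowest and highest gene over probes that passed this flag in all 4 channels. NEFM and KRT18, the lowest and highest of the HEK-293 list, had ratios of -0.71 and -0.55 and, over 3 probes, of -0.13 and 0.16. The blood, liver and endothelium list held 6 genes, of which 1 is not reported here. The members, lists and rules were chosen with earlier results of these data known. Alternatives took another normalization, background correction, deposited column, gene summary, threshold or test, another treatment of dim or flagged probes, or 1 array. Positions of probes are as deposited (hg18), and exons and UTRs were not annotated here.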

Additional observations from a re-analysis of the deposited data

How the results depend on the processing

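Under every alternative run, 0 of the 10 members were called lower and 0 higher, including 1.5-fold and each array alone. The rule of 2-fold on each array is stricter than the main one and could not add a call. Both tests with 2-fold also gave 0, but limma and the adjusted t-test left 0 member probes to call. The median of the members stayed below 0 under all settings. It was -0.24 with the brightest probe of a gene, -0.16 with normexp and loess, and -0.13 in the deposited series table, and ranged from -0.32 without the swapped array to -0.02 without the first array. BCL2, BCL2L2, BAD and BID kept their sign under all 13 alternatives. BCL2L1, MCL1, BAX, BAK1, BCL2L11 and BBC3 had the opposite sign under 1 of them, the one that left out the array whose sign matched the mean. Leaving out 1 array only restates the signs given above. It could not turn a gene that was negative on both arrays and had to turn each gene of opposite signs. Of the values of single genes and probes, 8 moved by more than the SD over the arrays. These were BCL2 (from -0.30 to -0.15, where the SD of 0.0081 between arrays is small) and its probe, and 1 BCL2L11 probe (0.36 with the ratios quantile normalized). Leaving out 1 array always shifts a value by less than that SD, so it could not count as a move. This held even for BAK1, which went from -0.21 to 0.44 without the first array. The count is therefore no measure of how stable a value is where the arrays lay far apart.

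The methods' t-test passed 1606 probes unadjusted (3 of members) and 3 after Benjamini-Hochberg adjustment (0 of members). limma, which takes the ratio within each array and so pairs the 2 RNAs of an array, passed 1177 unadjusted (0 of members) and 0 after adjustment. As both arrays belong to 1 replicate, neither test measures the spread between cultures, and pairing over separate cultures could not be made. Signal over background limits the BCL2L1 and BCL2L11 probes not counted, which have no ratio here.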
